A study of Mus musculus with 4 samples.

Results

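Long stretches of unique sequence covered by many neighbouring probes show how far the signal of newly made DNA extends around a point. The tiled probes of the arrays are grouped by the genomic fragment they were designed on, and the fragments described here are those that carry 8 or more distinct probes. They number 209 of 10582 fragments and hold 2226 of 19805 tiled probes, that is 11.2% of the probes on 1.98% of the fragments. The number of probes alone chose them, and no measured value was used. The cells were mouse embryonic stem (ES) cells of the female line PGK12.1, grown asynchronously and without treatment. Short single-stranded nascent DNA of these cells was hybridised against their total genomic DNA on 4 two-colour arrays, 2 with strands of 300-800 nt (nascent strands in Cy3, genomic DNA in Cy5) and 2 with strands of 100-600 nt (nascent strands in Cy5, genomic DNA in Cy3). The fractions thus differed also in the dye, the array design and the version of the extraction software, and these cannot be told apart from strand length.

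Replication of a mammalian chromosome starts at many origins (ORIs), from which 2 forks move apart. The first DNA made at an ORI is a short strand that begins with an RNA primer. λ-exonuclease digests broken DNA with a free 5′ phosphate but not RNA-primed strands, so size-selected strands that survive it come from the neighbourhood of ORIs, and DNA close to an ORI is more abundant in them than in genomic DNA. Very short fractions can also hold Okazaki fragments, which arise along the whole genome at the lagging strand. CpG islands, to which some results refer, are C+G-rich stretches at many gene starts whose CpG dinucleotides are mostly unmethylated.

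The dense fragments were 2006 to 9192 bp long (median 2485 bp) and together spanned 586804 bp. They carried 8 to 35 probes of 60 bases (median 9), with a median of 260 bp from the start of one probe to the start of the next. At the limit of the rule, 67 fragments had exactly 8 probes and 90 fragments with 7 probes lay just outside. By chromosome, 57 dense fragments were on chromosome 3 and the others on chromosome X, 42 in the tiled stretch with the lower fragment numbers (X region 1) and 110 in the stretch with the higher numbers (X region 2). They made up 3.19% of the fragments of X region 2, against 1.23% in X region 1 and 1.53% on chromosome 3. C+G content averaged 44.8% over their probes and 41.8% over all other probes, with 0.625 and 0.595 CpG dinucleotides per probe.

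The position of a dense fragment was read by matching its 60-base probes to the promoter windows of RefSeq genes (250 bases before to 50 after each gene start, assembly GRCm38.p6). In all, 31 probes of 21 dense fragments matched a window exactly, and the windows belonged to 27 genes. All matching probes read along the plus strand, while offsets counted along the fragment ran against the coordinate. The 9 fragments with 2 or more matched probes gave the same placement with each, and 9 further probes that only partly overlapped a window had the letters that their placement predicts. Coordinates below run from the first to the last probe of a fragment, and the other dense fragments are given by number.

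The probes below carry the results that follow. Their letters are printed 5′ to 3′ with CpG dinucleotides in capitals. In fragment 105615 (chr3:96218073-96222132), which holds the histone genes H2ac20, H2ac21 and H2bc21, these are the run of high probes at H2ac21 and the probes on either side of it.
fragment 105615 offset 1660: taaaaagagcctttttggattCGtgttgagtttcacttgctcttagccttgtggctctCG
fragment 105615 offset 1840: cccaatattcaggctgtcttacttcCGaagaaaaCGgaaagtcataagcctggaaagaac
fragment 105615 offset 2220: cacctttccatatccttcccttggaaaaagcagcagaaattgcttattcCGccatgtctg
fragment 105615 offset 2440: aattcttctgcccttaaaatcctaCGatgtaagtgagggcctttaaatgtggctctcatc
fragment 105615 offset 2690: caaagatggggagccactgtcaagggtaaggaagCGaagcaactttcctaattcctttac
In fragment 66946 (chrX:73773530-73782419), the longest of all, which overlaps Srpk3, a kinase of the SR-protein family enriched in muscle, and Idh3g, a subunit of the mitochondrial NAD-dependent isocitrate dehydrogenase, these are the lowest probe and the run of 3 high probes.
fragment 66946 offset 3420: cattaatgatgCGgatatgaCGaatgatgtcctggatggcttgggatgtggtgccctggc
fragment 66946 offset 4760: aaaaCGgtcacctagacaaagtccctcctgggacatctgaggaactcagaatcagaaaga
fragment 66946 offset 4970: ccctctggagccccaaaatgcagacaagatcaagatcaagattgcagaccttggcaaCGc
fragment 66946 offset 5130: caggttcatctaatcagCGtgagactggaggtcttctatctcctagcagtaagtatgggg
In fragment 65030 (chrX:71961704-71964063), at the start of Prrg3, a vitamin K-dependent membrane protein gene, these are the pair of probes high in both fractions and the probe before them, which was below 0 in 300-800 nt strands.
fragment 65030 offset 900: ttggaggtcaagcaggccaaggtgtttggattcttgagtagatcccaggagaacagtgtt
fragment 65030 offset 1040: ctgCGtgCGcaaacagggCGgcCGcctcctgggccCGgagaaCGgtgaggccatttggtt
fragment 65030 offset 1420: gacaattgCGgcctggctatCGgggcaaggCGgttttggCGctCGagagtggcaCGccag
In fragment 46264 of X region 1, which had the lowest mean in both fractions, these are its lowest probes in each fraction. Offset 960 was lowest in 300-800 nt strands. Offset 2690 was lowest in 100-600 nt strands, where a single array had a value.
fragment 46264 offset 960: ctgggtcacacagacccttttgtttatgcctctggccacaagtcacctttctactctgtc
fragment 46264 offset 2690: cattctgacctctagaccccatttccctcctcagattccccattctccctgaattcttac
The RefSeq promoter window of H2ac21 (GRCm38.p6, chr3:96219635-96219934, plus strand) is shown with the 60 bases of the probes at offsets 2440 and 2220 in capitals, the second of which is centred 8 bp after the gene start.
H2ac21: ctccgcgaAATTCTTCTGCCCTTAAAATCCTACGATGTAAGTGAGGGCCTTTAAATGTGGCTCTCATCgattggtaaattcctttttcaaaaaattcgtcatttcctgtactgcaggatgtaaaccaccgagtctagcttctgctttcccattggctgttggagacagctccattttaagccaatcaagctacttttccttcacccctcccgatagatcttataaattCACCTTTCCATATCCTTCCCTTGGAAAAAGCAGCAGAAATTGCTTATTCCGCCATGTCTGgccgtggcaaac

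The level of a probe is its log2 ratio, nascent strands divided by genomic DNA, after loess within each array. At the probe on the H2ac21 start (offset 2220) it was 2.70 and 2.67 in the 300-800 nt arrays and 0.78 in the single 100-600 nt array with a value. The neighbour at offset 2440 had 0.78 and 0.87 in the 300-800 nt arrays and 0.52 and -0.25 in the 100-600 nt arrays. Levels thus changed by almost 2 log2 units between adjacent probes of the same promoter window, while the replicate arrays of 300-800 nt strands lay within 0.10 of each other at both.

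As a set, the dense fragments lay slightly above the rest of the arrays. The mean level of their probes was 0.12 and 0.13 in the 2 arrays of 300-800 nt strands, against -0.03 in both for the other probes. In the 100-600 nt strands it was 0.07 and 0.10, against -0.05 and -0.06. The difference was 0.15 ± 0.0031 (SD, n = 2 arrays) for 300-800 nt and 0.14 ± 0.034 (SD, n = 2 arrays) for 100-600 nt, so it was positive in 4 of 4 arrays. It was nevertheless small beside the spread of single probes, whose SD was 0.71 in 300-800 nt and 0.47 in 100-600 nt strands. C+G content moved with it, being higher in the dense fragments as given above, and its part in the difference was not tested. Over single probes of the dense fragments, C+G content had a correlation of 0.0228 with the 300-800 nt level (2226 probes) and of 0.145 with the 100-600 nt level (2213 probes). The number of CpG dinucleotides in the probe had correlations of 0.129 and 0.168.

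A probe was called positive in a fraction when the mean of its arrays lay above the 0.95 quantile of all tiled probes, a log2 ratio of 1.16 for 300-800 nt and 0.64 for 100-600 nt. Of the probes in dense fragments 140 of 2226 (6.29%) were positive in 300-800 nt strands and 191 of 2213 (8.63%) in 100-600 nt strands, where the rule gives 5% over all probes in each fraction. The share rose with the number of probes on a fragment in both. For 300-800 nt it was 4.36% on fragments with 1 probe, 5.00% with 2-3, 5.34% with 4-7, 5.84% with 8-11 and 7.01% with 12 or more. For 100-600 nt it was 2.77%, 5.41%, 6.03%, 6.83% and 11.5% over the same classes. C+G content rose with the number of probes too, from 40.3% with 1 probe to 45.5% with 12 or more. With C+G content removed, the shares over all dense fragments were 6.20% in 300-800 nt and 7.41% in 100-600 nt strands. Its part in the rise over the classes was not tested. On the 56 fragments with 12 or more probes the single arrays gave 6.66% and 7.36% in 300-800 nt, and 9.38% and 12.4% in 100-600 nt strands. Positive in both fractions were 23 of 2213 probes of the dense fragments (1.04%), against 0.682% of all probes with a value in both. They made up 16.7% of the 138 probes positive in 300-800 nt strands with a value in both fractions, and 12.04% of the 191 positive in 100-600 nt strands, against 13.56% and 13.65% over all tiled probes.

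**Figure D1:**
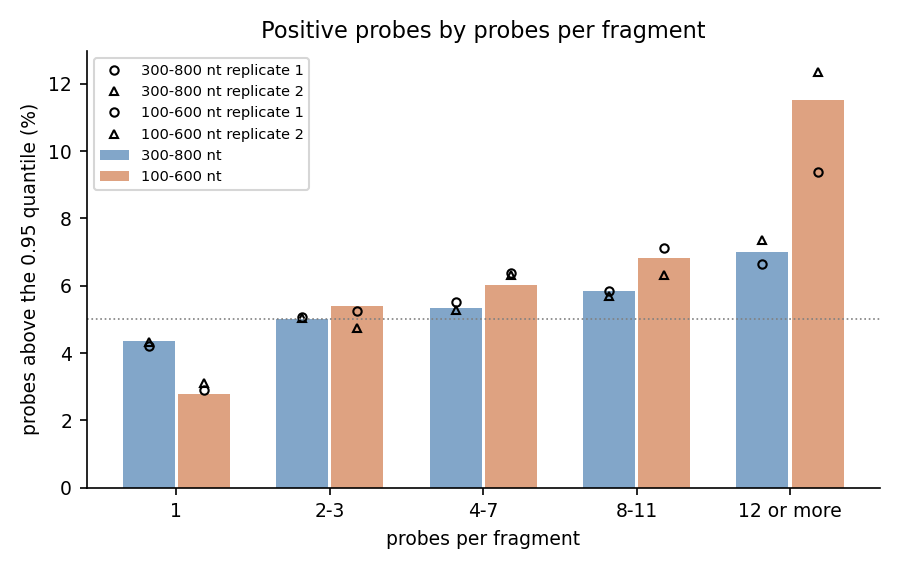
Share of probes above the 0.95 quantile (%, bars from the mean of the arrays of a fraction, symbols from each array alone with its own quantile) by the number of probes on their fragment. The dotted line marks 5%, and the share on fragments with 12 or more probes reached 7.01% in 300-800 nt and 11.5% in 100-600 nt strands.

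Neighbouring probes resembled each other far less than repeated measurements of one probe did. In 300-800 nt strands the same probe had a correlation of 0.984 between the 2 arrays (2226 probes). Probes of the same fragment whose starts lay 60-200 bp apart (upper bounds are not included here and below) had a correlation of 0.123 (502 pairs). It was 0.0864 at 200-400 bp (1512 pairs), 0.071 at 400-600 bp (1420 pairs) and 0.0045 at 600-800 bp (1267 pairs). Beyond that it ranged from -0.0201 to 0.0579 without order. The value at 200-400 bp was 0.0352 without the fragments of the study's list of ORIs, where it was 0.0293 at 1000-2000 bp, and 0.133 with each array centred on its median and no loess. The median absolute difference between the probes of a pair was 0.64 log2 units at 60-200 bp and 0.66 at 1000-1500 bp, whereas the replicate arrays differed at the same probe by a median of 0.07. The pairs share their arrays and, within a fragment, their probes, so these correlations are descriptions.

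In 100-600 nt strands the likeness of close neighbours was larger and did not end at 600 bp. The correlation was 0.326 at 60-200 bp (499 pairs), 0.149 at 200-400 bp, 0.142 at 400-600 bp and 0.072 at 600-800 bp, followed by 0.147 at 800-1000 bp and 0.134 at 1000-1500 bp (2321 pairs). The arrays were less reproducible here, with a correlation of 0.591 between replicates at the same probe (1705 probes). Taking a pair's first probe from replicate 1 and its second from replicate 2 gave 0.237 at 60-200 bp and 0.0727 at 1000-1500 bp. At 60-200 bp the single arrays gave 0.310 and 0.303. In fragments of 2 to 7 probes, for comparison, the correlation at 60-200 bp was 0.0854 in 300-800 nt (1537 pairs) and 0.229 in 100-600 nt strands (1505 pairs).

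A large part of the likeness at long distances came from few fragments. Without fragments 46254, 46256 and 46264 of X region 1, chosen after their values were seen as the 3 lowest in 100-600 nt strands, the correlation at 1000-1500 bp fell from 0.134 to 0.0653 in 100-600 nt strands. At 200-400 bp it fell from 0.149 to 0.0843. At 60-200 bp it was 0.299 without them and 0.326 with them. In X region 1 alone the 100-600 nt correlation was between 0.201 and 0.369 in every distance class from 200 to 3000 bp, and without the 3 fragments it lay between -0.0816 and 0.104. In 300-800 nt strands the value at 200-400 bp was 0.0698 without them.

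Removing the C+G content of the probes by a spline left 0.116 at 60-200 bp in 300-800 nt and 0.291 in 100-600 nt strands. C+G content itself had a correlation of 0.405 between probes 60-200 bp apart. The signal of 1 channel alone was also alike between neighbours. At 200-400 bp in 300-800 nt arrays the correlation was 0.210 for the nascent-strand channel and 0.170 for the genomic channel, against 0.0864 for their ratio. The order was opposite in 100-600 nt arrays, with 0.123 and 0.108 for the channels against 0.149 for their ratio.

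**Figure D2:**
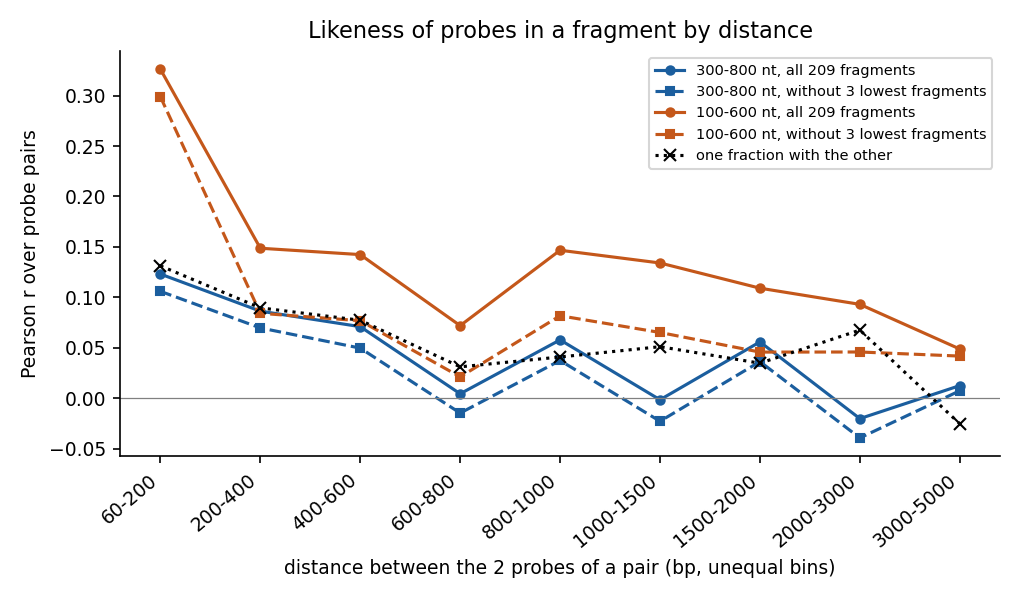
Pearson correlation between probes of the same dense fragment (vertical axis) by the distance between their starts in bp (horizontal axis, unequal bins), for each fraction with all 209 fragments (solid) or without the 3 lowest fragments 46254, 46256 and 46264 (dashed), and between a probe in one fraction and its neighbour in the other (dotted). The 100-600 nt curve starts at 0.326 and the 300-800 nt curve at 0.123, and without the 3 fragments the 100-600 nt curve is at 0.299 and then at 0.0843.

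The fractions were compared at the same probe and at neighbours to see whether a high level in one was found in the other. At the same probe the correlation between fractions was 0.317 over 2213 probes of the dense fragments and 0.365 over 17422 other probes. One probe in 300-800 nt and a neighbour 60-200 bp away in 100-600 nt strands had a correlation of 0.131, and 0.0897 at 200-400 bp. Single arrays of one fraction with single arrays of the other gave 0.245 to 0.328 at the same probe, and replicate 2 of the 100-600 nt strands gave the higher values with both.

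When each fragment was centred on its highest probe in 300-800 nt strands, the mean level of that probe in 100-600 nt strands was 0.21 (SD between fragments 0.43, 207 fragments; 0.16 and 0.26 in the single arrays). At 60-200 bp from it the mean was 0.13 and at 200-400 bp 0.05, close to the mean of all probes of the dense fragments in that fraction, 0.08. Centred on the highest probe in 100-600 nt strands, the 300-800 nt level was 0.34 at the probe (209 fragments), 0.16 at 60-200 bp, 0.18 at 200-400 bp, 0.17 at 400-600 bp and 0.03 at 600-800 bp. Both single 300-800 nt arrays gave the same course. Around the lowest probes the other fraction was low at the probe itself, with -0.22 and -0.27, and above 0 in every distance class beyond it.

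**Figure D3:**
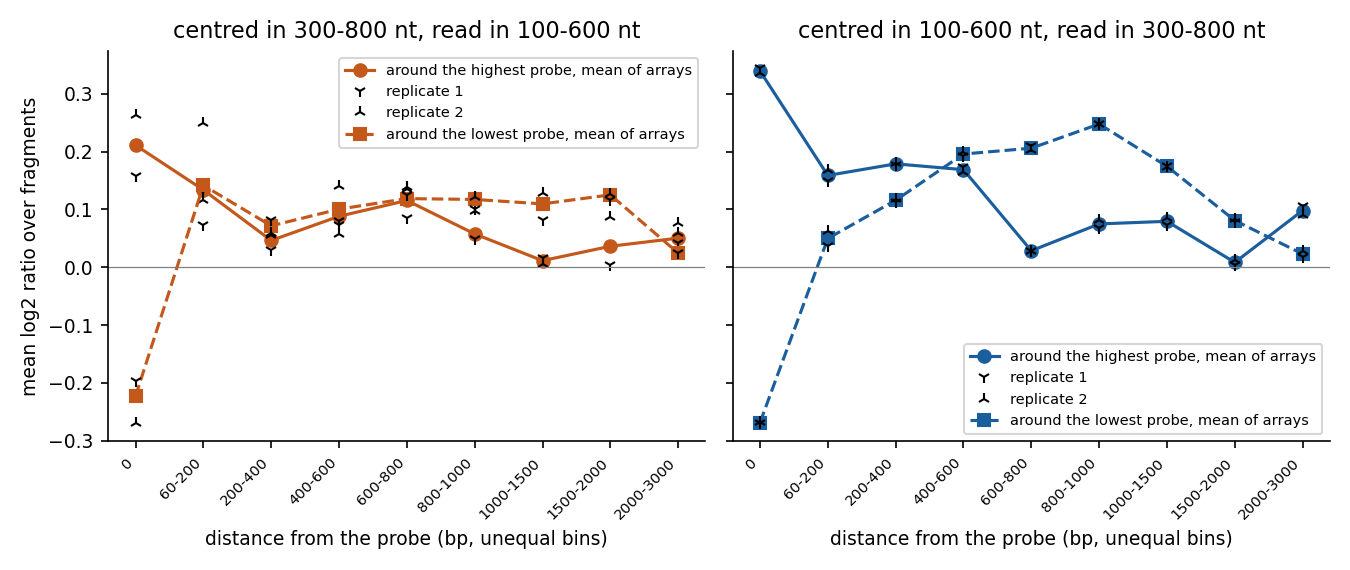
Mean log2 ratio in one fraction (vertical axis) by distance in bp (horizontal axis, unequal bins) from the probe that is highest (circles, solid) or lowest (squares, dashed) in the other fraction, averaged over dense fragments, with single arrays as small black marks. The other fraction was 0.21 and 0.34 at the highest probe and -0.22 and -0.27 at the lowest.

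Most positive probes stood alone. The 140 positive probes of 300-800 nt strands formed 127 runs, that is stretches of positive probes with no other probe between them, 115 with 1 probe, 11 with 2 and 1 with 3. The 191 positive probes of 100-600 nt strands formed 150 runs, 118 with 1 probe, 24 with 2, 7 with 3 and 1 with 4. Positive probes were found on 93 of the 209 fragments in 300-800 nt and on 96 in 100-600 nt strands. Next to a positive probe the neighbour was positive in 26 of 262 cases (9.92%) in 300-800 nt strands, against 6.29% of all probes of the dense fragments. In 100-600 nt strands it was positive in 82 of 359 cases (22.8%), against 8.63%. Around positive probes that stood alone, 44.7% of the neighbours in 300-800 nt strands had a level below 0, and so had 41.6% of all probes of the dense fragments. The shares in 100-600 nt strands were 34.1% and 37.2%. Neighbours of a probe that stands alone are by definition not positive, whereas the shares over all probes include positive ones. The shares are therefore not directly comparable. Of the 2226 probes, 123 were positive in each 300-800 nt array alone (5.53%), as were 4.25% of all tiled probes. Of the 1705 probes with a value in both 100-600 nt arrays, 48 were positive in each alone (2.82%), as were 1.29% of all such probes. By replicate 1 or replicate 2 of the 100-600 nt strands alone, with its own quantile, there were 3 or 5 runs of 3 or more probes in place of 8.

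The run of 3 in 300-800 nt strands lay in fragment 66946, where the study's list of ORIs has them in an intron and exons of Srpk3. Its probes, at offsets 4760, 4970 and 5130 and printed above, had 1.49, 1.27 and 1.32 in replicate 1 and 1.42, 1.33 and 1.28 in replicate 2. In 100-600 nt strands they had 0.39, 0.46 and 0.57 in replicate 1 and 0.66, 0.48 and 0.89 in replicate 2. Each of these values was above 0, and in the mean of the 100-600 nt arrays the last of the 3 probes was positive. The next probe, at offset 5380, had -0.02 and -0.22 in the 300-800 nt arrays. The number of runs of 3 or more in this fraction depended on the normalisation, with 5 after median centring and 3 after normexp. The lowest probe of the fragment, at offset 3420, had -1.91 and -1.85 in 300-800 nt but 0.50 and 0.57 in 100-600 nt strands. The 100-600 nt run of 3 in this fragment lay elsewhere, at offsets 7010 to 7430, where the mean was 1.02 in 100-600 nt and 0.21 in 300-800 nt strands.

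**Figure D4:**
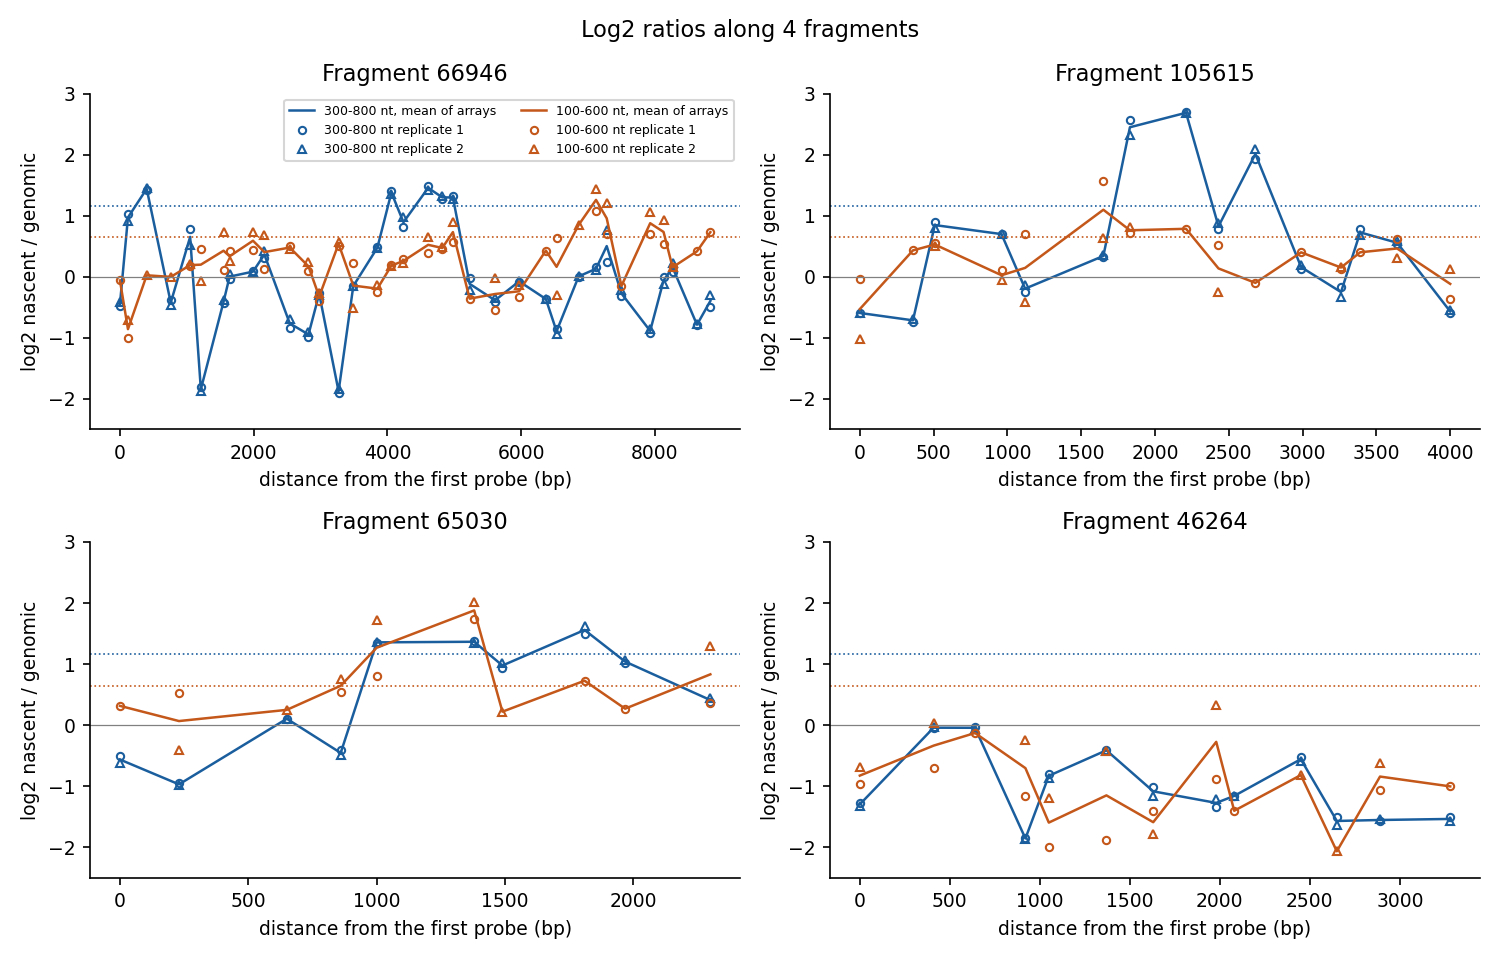
Log2 ratio, nascent strands divided by genomic DNA (vertical axis), along 4 dense fragments by the distance in bp from their first probe (horizontal axis), with the mean of the arrays of each fraction as a line, single arrays as symbols (circles replicate 1, triangles replicate 2) and the 0.95 quantile of each fraction as a dotted line. In fragment 105615 the 300-800 nt line peaks at 2.68, in fragment 65030 both lines rise together, and in fragment 46264 both stay below 0.

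Runs of 2 in 300-800 nt strands reached higher levels. The highest, at offsets 1840 and 2220 of fragment 105615, had a mean of 2.63 and 2.50 in the 300-800 nt arrays. Both its probes were positive in 100-600 nt strands too, where they were part of a run of 3 that began at offset 1660 with 1.56 and 0.63. The probe at offset 2690 was at 1.93 and 2.09 in 300-800 nt and at -0.10 in the 100-600 nt array with a value. H2ac20 and H2ac21 encode histone H2A and are near copies of each other on this same fragment, and signal shared between such copies was not tested. Fragment 67276 followed with a run at offsets 90 and 360 (mean 1.77 and 1.78 in the 2 arrays). In fragment 67065 the run at offsets 2280 and 2530 had 1.81 and 1.71. The study's list of ORIs places these probes at the 3′UTR of Avpr2, the V2 vasopressin receptor gene, and Arhgap4. The fragment also holds the start of Avpr2, where the probe centred 41 bp before it is at offset 4480. Fragment 42495 had a run at offsets 1990 and 2240 with 1.58 and 1.54.

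The longest run in 100-600 nt strands had 4 probes, at offsets 1380 to 2130 of fragment 66958, a span of 810 bp. Its mean was 0.79 in replicate 1, which lacked the last probe, and 0.89 in replicate 2. In 300-800 nt strands the same probes had a mean of 0.63 and none was positive. The run of 3 with the highest mean, 1.03 and 1.50 in the 2 arrays, lay at the start of Prrg3 in fragment 65030. Its probes at offsets 1040 and 1420, which carry 6 CpG dinucleotides each, had 0.81 and 1.73, and 1.74 and 2.02. In 300-800 nt strands they had 1.35 and 1.37, and 1.38 and 1.35. Both were above 0.8 on 4 of 4 arrays, while the first probe of the run, at offset 900, had 0.54 and 0.75 in 100-600 nt and -0.41 and -0.49 in 300-800 nt strands. Fragment 66565, at the 3′-exonuclease gene Trex2, had a run of 3 (mean 0.75 and 1.22) at which none was positive in 300-800 nt strands, with 0.43, -0.10 and -0.34 in the mean of the arrays. Fragment 67124 had 2 runs of 3, with means of 0.90 and 0.80 over the 100-600 nt arrays and of -0.33 and 0.09 in 300-800 nt strands. Of the 8 runs of 3 or more in 100-600 nt strands, those in fragments 65030 and 105615 held probes positive in 300-800 nt strands, 2 each, and the other 6 held none.

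Averaged over a whole fragment, levels spread little around 0. The means of the 209 fragments ranged from -1.02 to 0.80 in 300-800 nt (median 0.13, 149 above 0) and from -0.98 to 0.65 in 100-600 nt strands (median 0.09, 146 above 0). Differences between fragments made up 3.28% of the variance of single probes in 300-800 nt and 12.5% in 100-600 nt strands. The rest lay within fragments, and measurement error estimated from the replicate arrays amounted to 0.808% and 25.9% of the variance. Over the 209 fragments the means of the fractions had a correlation of 0.534, against 0.317 for single probes. The replicate correlation of the fragment means was 0.984 in 300-800 nt and 0.584 in 100-600 nt strands.

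Some of the highest fragment means lay at gene starts and others elsewhere. Of all 209 fragments, 21 held a probe in a RefSeq promoter window. Fragment 42524, placed by the study's list of ORIs at the promoter of the small GTPase gene Rap2c, had 0.79 and 0.80 in 300-800 nt and 0.48 and 0.78 in 100-600 nt strands, the highest in the former and the second highest in the latter. Fragment 43419 (chrX:51679551-51682080), at the start of Hs6st2, a heparan sulfate 6-O-sulfotransferase, had 0.81 and 0.71, and 0.54 and 0.34. Its 10 probes held 3.2 CpG dinucleotides each on average, and 5 of them were positive in 300-800 nt and 4 in 100-600 nt strands. Fragments 105482, 106194 and 109331, all on chromosome 3, had 300-800 nt means of 0.70, 0.67 and 0.65 but 100-600 nt means of 0.14, 0.03 and 0.21. Fragment 65030 was highest in 100-600 nt strands with 0.66 and 0.84, where its genomic signal was the lowest of all 209 (percentile 0.478, and 17.2 in the 300-800 nt arrays), and the part of this in the ratio was not tested. After it, fragments 66565, 67458 and 66938 had means of 0.59, 0.51 and 0.50. The study's list of ORIs, itself drawn up on the 300-800 nt arrays, places probes of fragments 106194, 67458 and 66938 in exons. It places a probe of fragment 109331 at the Tbx15 promoter. Except for 42524, the 5 highest of one fraction were not among the 5 highest of the other.

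**Figure D5:**
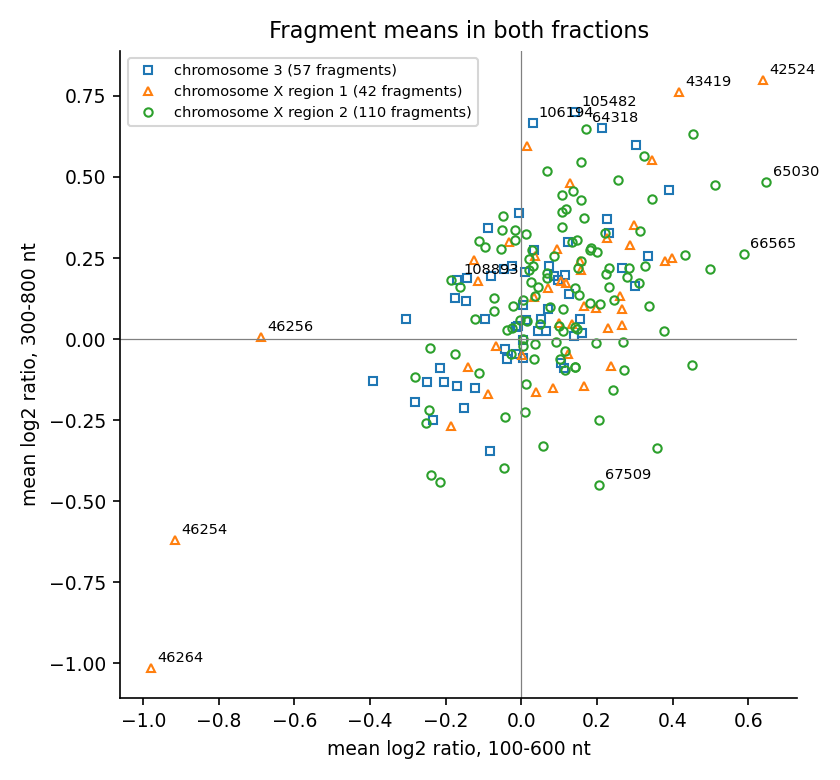
Mean log2 ratio of each of the 209 dense fragments in 300-800 nt strands (vertical axis) against 100-600 nt strands (horizontal axis), with symbols for chromosome 3 and the 2 tiled stretches of chromosome X and numbers at fragments named in the text. The 2 axes had a correlation of 0.534, and fragments 46254 and 46264 lie apart at the lower left.

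The 3 lowest fragments in 100-600 nt strands were all in X region 1. Fragment 46264 had a mean of -1.02 over the 300-800 nt arrays, and -1.14 and -0.75 in the 100-600 nt arrays. Each of its 13 probes was below 0 in the mean of either fraction. Fragment 46254 had -0.60 and -0.64, and -1.14 and -0.62. Fragment 46256 had 0.01 in both 300-800 nt arrays, with single probes between -1.79 and 2.38, and -0.86 and -0.57 in 100-600 nt strands. The genomic signal of these 3 was among the highest of the 209 fragments, at percentiles of 98.1, 94.7 and 100 for fragments 46254, 46256 and 46264 in the 300-800 nt arrays and of 98.1, 97.6 and 100 in the 100-600 nt arrays. Their nascent-strand signal in the 300-800 nt arrays was at percentiles of 78.9, 95.2 and 94.3, and in the 100-600 nt arrays at 10.05, 24.4 and 89.95. The part of the genomic signal in the low ratios was not tested. No probe of these fragments shared 20 bases with a probe of another fragment, but only 2 probes (0.0898%) of all dense fragments did. That search covered the probes of the arrays only, and copies elsewhere in the genome were not tested. Fragment 67509, at the starts of Taz and Dnase1l1, was the third lowest in 300-800 nt strands with -0.44 and -0.46 but had 0.24 and 0.20 in 100-600 nt strands.

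Few dense fragments were called different between the fractions. The comparison was fitted with limma over all probes or fragments measured on all 4 arrays, with the 2 arrays of 300-800 nt strands counted as 1 sample because they differed by less than repeated spots of a single array. The spread thus came from the 2 arrays of 100-600 nt strands. Of 1705 probes of the dense fragments 76 were higher and 37 lower in 300-800 nt strands at an adjusted p under 0.05 (Benjamini-Hochberg over all 15478 probes), that is 4.46% and 2.17% where 4.82% and 2.2% of all probes were called. The calls lay on 87 fragments, and 8 of these had calls in both directions. The study's text calls the arrays of the longer strands biological replicates, but the labels do not, and no source used here says it of the shorter strands, so p-values measure only the spread between these samples. With each array centred on its median and no loess the counts were 132 and 19 (7.74% and 1.11%, against 6.11% and 1.16% of all probes). With all 4 arrays as replicates they were 325 and 272 (19.1% and 15.95%, against 18.9% and 16.2%). After normexp background correction limma called 0 of the 1705 higher and 0 lower, against 0% and 0.00646% of all probes. An unadjusted p under 0.05 was then found for 179 of them (10.5%) and for 9.6% of all probes.

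The largest differences of single probes, chosen after their values were seen, were found in fragments 65275 and 67124. The probe at offset 3950 of fragment 65275, which also holds the start of the melanoma antigen gene Magea4, had 2.75 and 2.70 in 300-800 nt and 0.02 and 0.23 in 100-600 nt strands (difference 2.60, SE 0.38, limma adjusted p = 0.00166). The probe at offset 3620 of fragment 67124 had -2.27 and -2.31 against 0.65 and 0.01 (difference -2.62, SE 0.39, limma adjusted p = 0.00167). Fragment 46256 held 2 further calls, at offsets 40 and 560, where the 300-800 nt level was 2.38 and 0.33 and the 100-600 nt level 0.02 and -1.94. In fragment 66946 the probe at offset 3420, printed above, had a difference of -2.41 (SE 0.37, limma adjusted p = 0.00191).

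Of the 209 fragment means 3 were higher in 300-800 nt strands and 0 lower in the same limma fit, against 3.53% and 1.29% of all 9046 fragments tested. A total of 30 (14.4%) had an unadjusted p under 0.05, against 22.5% of all fragments tested. The 3 were 106194, 108893 and 64318, over the 6 probes of each with a value on every array. The prior spread was estimated within classes of probe number, so calls are not comparable between classes. Fragments 64607 (8 probes used) and 67124 (15 probes used) differed by -0.61 (SE 0.10) and -0.51 (SE 0.09). Neither was called, although the SE of each was smaller than that of the 3 called fragments. Fragment 106194, placed by the study's list at the last exon of Ankrd34, had 0.78 and 0.77 in 300-800 nt and -0.18 and 0.03 in 100-600 nt strands, a difference of 0.85 (SE 0.21, limma adjusted p = 0.0101). Fragment 108893, in an intron of Hao3, a hydroxyacid oxidase gene, had 0.72 and 0.71 against -0.06 and 0.02, a difference of 0.73 (SE 0.21, limma adjusted p = 0.0247). Fragment 64318 had 0.81 and 0.86 against 0.19 and 0.15, a difference of 0.67 (SE 0.21, limma adjusted p = 0.0446). The arrays of the fractions did not overlap in any of them, which adds nothing to the calls, since the same difference chose these fragments. Over all 12 of its probes fragment 108893 had only 0.17 and 0.20 in 300-800 nt strands, so its call rests on the probes that were left on every array. These calls ended with normexp, with marked spots kept or with each array divided by its SD, each of which left 0 of 209 fragments, and leaving out a 300-800 nt array gave 3 or 4. Fragment 106194 was at percentile 99.5 of the genomic signal in both fractions. The lowest adjusted p values for fragments lower in 300-800 nt strands were 0.0717 for fragment 64948 (difference -0.60) and 0.0982 for fragment 65030 (difference -0.60) in the limma fit.

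The study's list of ORIs was drawn up on the 300-800 nt arrays, so only the 100-600 nt arrays measure its probes independently. Of the listed probes 33 lay on 21 dense fragments. Their mean level was 1.58 and 1.56 in the 300-800 nt arrays, which chose them, and 0.29 and 0.43 in the 100-600 nt arrays, where 9 of 33 were positive. The other 225 probes of the same fragments had a mean of 0.19 ± 0.49 (SD over probes) in 100-600 nt strands with 16.5% positive. Probes of the fragments without a listed probe had 0.07 ± 0.46 with 7.41% positive. Of the 13 listed probes with a CpG island in the list, on 7 fragments, 7 were positive in 100-600 nt strands (mean 0.56 ± 1.01, SD over probes). Of the 20 without, on 14 fragments, 2 were positive (mean 0.20 ± 0.39). The 300-800 nt means were 1.63 and 1.53.

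Among listed probes the 100-600 nt level varied within single fragments. In fragment 43419 the probe at offset 1897 had 1.17 and 1.42, and the probe at offset 1260 had -1.06 and -0.78, while in 300-800 nt strands they had 1.46 and 1.32, and 1.28 and 1.19. The listed probe of fragment 42524, at offset 2160, had 1.67 and 2.21 in 100-600 nt strands, the highest of the 33. Outside promoters, the probe of fragment 65456 at the last exon of Magea10, a gene of the melanoma antigen family, had 2.43 and 2.48 in 300-800 nt and 0.18 and 0.41 in 100-600 nt strands. In fragment 67065 the 3 listed probes at offsets 1870, 2280 and 2530 had 300-800 nt means of 2.14, 1.96 and 1.56 and 100-600 nt means of 0.42, 0.31 and 0.23.

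Probes in RefSeq promoter windows had a higher mean than all probes of the dense fragments in 3 of 4 arrays, and in replicate 2 of the 100-600 nt strands both means were 0.10. The 31 such probes of dense fragments had means of 0.39 and 0.37 in the 300-800 nt arrays and of 0.21 and 0.10 in the 100-600 nt arrays. In 300-800 nt strands 4 of 31 were positive (12.9%) and in 100-600 nt strands 7 of 30 (23.3%). The 94 probes in promoter windows on other fragments had means of 0.30 ± 0.82 (SD over probes) and 0.21 ± 0.71, with 11.7% and 23.9% positive. Their C+G content was 48.7% in the dense and 50.1% in the other fragments.

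Single gene starts had high and low levels in either fraction. The probe centred 33 bp before the start of Idh3g and 92 bp before that of Ssr4, a translocon-associated protein gene on the opposite strand, had 0.67 and 0.68 in 300-800 nt and 0.84 and 1.43 in 100-600 nt strands. The probe shared by Nsdhl, an enzyme of cholesterol synthesis, and the centrin gene Cetn2 had 0.13 and 0.05, and 0.97 and 0.59. At Kis2 the probe centred 8 bp before the start had 1.52 and 1.47, and 0.27 and -0.05. Below 0 in all 4 arrays was a probe 122 bp before the zinc-finger gene Zfp92 (-1.20, -1.07, -0.70 and -0.64). The same held for the probe of Pnma3 (-0.17, -0.13, -0.33 and -0.08) and that of Mtmr11 (-0.26, -0.24, -0.26 and -1.11). It also held for a probe 163 bp before Zfp275 (-0.10, -0.08, -1.55 and -1.26). A probe 200 bp before Cd160, a receptor of lymphocytes, was below 0 in all 4 arrays too (-1.22, -1.31, -0.85 and -0.82). The other Cd160 probe, centred 20 bp after the start, had 0.19, 0.04, 0.49 and 0.46. In each of these lists the 300-800 nt arrays come first.

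Pooled over all dense fragments, levels were lower at the ends. Probes less than 100 bp from the nearer end had a mean of -0.02 and -0.01 in the 300-800 nt arrays and of -0.04 and -0.09 in the 100-600 nt arrays. Probes 800 bp or more from an end had 0.15 in both 300-800 nt arrays and 0.11 and 0.16 in the 100-600 nt arrays (930 probes). The positive share was 4.52% at the ends and 7.42% in the middle for 300-800 nt, and 4.06% and 11.6% for 100-600 nt strands. C+G content moved in the same direction, from 42.8% to 45.6%, and its part was not tested. Long fragments also weigh more in the middle class. The positive share on fragments with 12 or more probes was 7.01% in 300-800 nt and 11.5% in 100-600 nt strands. With 8-11 probes it was 5.84% and 6.83%. Position within a fragment was not tested apart from the number of probes.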

How the data were processed

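DNA of mouse ES cells was measured on 4 two-colour Agilent arrays, 2 per fraction of nascent strands. For each spot the authors deposited the intensities in Cy3 and Cy5, extracted with Feature Extraction 7.5.1 (100-600 nt, background-subtracted and spatially detrended) and 9.5.3.1 (300-800 nt, background-subtracted and dye-normalised). For the 300-800 nt arrays the authors also deposited a log10 ratio, which was not used here. The loess and the calling of ORIs by the study are not part of the deposited values.

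Processed signals gave a log2 ratio (nascent strands divided by genomic DNA) for each spot, without control spots and without spots marked by the software (1491 and 3450 in 100-600 nt, 8 and 13 in 300-800 nt). It was loess-normalised within each array in limma 3.58.1 under R 4.3.3 and averaged over repeated spots. This left 18431 and 16682 probes with a value in the 100-600 nt arrays and 19805 in each 300-800 nt array. Where 1 array lacked a probe, the other array alone gave its level in that fraction, and in 100-600 nt strands 1705 of 2213 probes of the dense fragments had both. On the 100-600 nt arrays 72 spots outside the tiled fragments were left out.

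Precision is limited by having 2 arrays per fraction. The 2 arrays of 300-800 nt strands differed by less than repeated spots (variance ratio 0.685), and the 2 of 100-600 nt by more (5.95), so the former counted as 1 sample in limma. For fragment means, the prior spread was estimated within classes of probe number, where a trend over probe number had been planned but could not be fitted. Correlations were computed in Python 3.11 with numpy 2.4.6 and pandas 2.3.3. The correlation between probes of a pair, the search for runs and the limma fit of single probes were tested on simulated data. The other statistics, among them the limma fit of fragment means, were not. The GRCm38.p6 placement comes from exact matches to RefSeq windows, and the design's own build was not used. Fragments named are those with the longest runs, the highest and lowest means, the largest spans, the lowest adjusted p or most probes of the study's list of ORIs, by a written rule, apart from those said to be chosen by their values. The fragments and lists were chosen with earlier results of these data known. Alternatives covered normalisation, marked spots, array, quantile, probe minimum, C+G content, weighting, run gap, the replicate block and scaling. Normexp used the spot mean on the 100-600 nt arrays but the spot median on the 300-800 nt arrays, which hold no spot mean. Its comparison of the fractions thus also differs in this measure. Not every item of the study is reported here.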

Additional observations from a re-analysis of the deposited data

Results flagged for a closer look

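The level of 3 dense fragments differed between the fractions in the limma fit over all fragments. The difference of 300-800 nt minus 100-600 nt strands was 0.85 in fragment 106194, 0.73 in fragment 108893 and 0.67 in fragment 64318 on the log2 scale. Each of these differences was positive with either array of 100-600 nt strands, which is no separate evidence, since the same difference chose the fragments. Groups of 2 arrays were too small for a test of single outlying arrays.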

How the results depend on the processing

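Across 130 alternative values 63 stayed close to those reported and 67 moved. Close meant a change smaller than the SD between the arrays of the fraction or, for counts, a value within a fixed ratio. No correlation and no level difference changed sign. Shares and counts cannot change sign, and some counts fell to 0. The correlation at 200-400 bp in 300-800 nt strands (0.0864) was 0.133 with median centring, 0.0946 with normexp, 0.0979 and 0.154 for fragments with at least 6 or 12 probes, 0.0804 with equal weight per fragment, 0.079 with C+G content removed, 0.0352 without the fragments of the study's list of ORIs and 0.0698 without the 3 lowest fragments, the last chosen after seeing the data. At 1000-2000 bp (0.022) the same alternatives, without C+G content, gave 0.062, 0.0314, 0.0243, 0.024, 0.0121, 0.0293 and 0.00133. In 100-600 nt strands the correlation at 200-400 bp (0.149) was 0.105 between probes of different replicates and 0.0843 without the 3 lowest fragments. At 1000-2000 bp (0.124) it was 0.0737 and 0.0572, and 0.108 with equal weights, 0.104 with C+G content removed and 0.106 to 0.126 without either array.

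The positive share in 300-800 nt strands (6.29%) was 8.22% with median centring, 7.73% with normexp, 7.01% for 12 or more probes, 12.8% and 2.96% at a lower and a higher quantile (top 10% and top 2.5% of all probes), 5.53% when positive in each array, and 6.15% to 6.33% without either array. In 100-600 nt strands (8.63%) it was 11.5% for 12 or more probes, 15.6% and 4.56% at the other quantiles, 2.82% in each array, 7.41% with C+G content removed and 7.98% to 8.64% without either array. Runs of 3 or more in 300-800 nt strands (1) numbered 5 with median centring, 3 with normexp, 2 for 6 or more probes, and 11 and 0 at the quantiles. In 100-600 nt strands (8) they numbered 3 to 5 without either array, 13 for 6 or more probes, 21 and 2 at the quantiles, 0 when positive in each array and 5 with C+G content removed. The level above other probes (0.15 in 300-800 nt) was 0.28 with median centring, 0.12 with normexp, 0.163 and 0.14 for 6 or 12 probes and 0.163 without the 3 lowest fragments, and in 100-600 nt strands (0.14) 0.17 for 12 or more probes.

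Probes that differed between the fractions (113) numbered 217 and 49 for 6 or 12 probes, 597 with 4 arrays as replicates, 638 with the replicate block, 30 with arrays divided by their SD, 0 with normexp, and 105 to 119 without either 300-800 nt array. Fragments that differed (3) numbered 8, 1, 49, 56, 0 and 0 in the same order, 10 with median centring, 0 with marked spots kept and 3 to 4 without either 300-800 nt array. The replicate number does not pair the arrays, since deviations of same-numbered arrays had a correlation of -0.00973 over 15478 probes. The test without one 100-600 nt array could not be fitted, as no spread between arrays remains when the 300-800 nt arrays count as 1 sample. The causes of these changes were not tested. Levels of 100-600 nt strands carry most of the measurement error, and most spots that were left out were on those arrays.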
